A study of Homo sapiens with 7 samples.

Results

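The loci of 8 housekeeping genes were examined in chromatin immunoprecipitation sequencing (ChIP-seq) peak lists of 5 targets: ACTB, TUBA1B, GAPDH, ENO1, EEF1A1, EEF2, HSP90AB1 and NPM1. The genes were given by name as highly transcribed genes, not chosen from measured values, and their transcript levels were not measured here. A peak was counted for a gene when it overlapped the gene's hg19 span extended by 3 kb on either side. By this rule 85 of the 132744 peaks on chromosomes 1 to 22 and X were members: 24 of 19889 for Pol II, 30 of 56040 for SPT5, 19 of 45003 for TRIM28, 10 of 9251 for O-GlcNAc and 2 of 2561 for OGA. All libraries were made from BJAB, an established human line of B cells that came from a Burkitt's lymphoma, and no treatment or genetic change is given in the labels. The antibodies were 8WG16 for the repeats of the largest Pol II subunit, SPT5, TRIM28, NCOAT for the enzyme OGA, and RL2 for the O-GlcNAc sugar. There was 1 library per target, so no difference below has a replicate check, and the 2 IgG control libraries were not analysed here.

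After it initiates, Pol II commonly stalls a short way into the gene, and the release from this pause sets how much polymerase enters the gene body. SPT5 is a subunit of DSIF, a complex that helps to hold the paused polymerase and then travels with it as it elongates. TRIM28 (TIF1b) is a co-repressor scaffold that has also been linked to pausing. OGA removes the sugar O-GlcNAc, which is attached to serines and threonines of many nuclear proteins, Pol II among them. The 8WG16 antibody prefers repeats without phosphate, the form of Pol II found mostly near starts.

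The 8 genes serve basic functions of every cell. ACTB (chr7:5566779-5570232, minus strand) encodes beta-actin and TUBA1B (chr12:49521566-49525304, minus) an alpha-tubulin, both of the cytoskeleton. GAPDH (chr12:6643585-6647537, plus) and ENO1 (chr1:8921059-8939151, minus) encode enzymes of glycolysis. EEF1A1 (chr6:74225473-74230755, minus) delivers aminoacyl-tRNA to the ribosome and EEF2 (chr19:3976054-3985461, minus) moves the ribosome along the message. HSP90AB1 (chr6:44214848-44221614, plus) is a constitutive cytosolic chaperone, and NPM1 (chr5:170814708-170837888, plus) is an abundant nucleolar chaperone of ribosome assembly. Spans ran from 3454 bp at ACTB to 23181 bp at NPM1. Summits were assigned along the strand of the gene to an upstream zone (3 kb to 1 kb before the start), a 5′ zone (1 kb either side of the start), the body, a 3′ zone (1 kb either side of the end) and a downstream zone (1 kb to 3 kb past the end). A Pol II peak of ACTB (3.12-fold, 3004 bp past the end) and an SPT5 peak of HSP90AB1 (5.34-fold, 3587 bp past the end) had summits beyond these zones. They are counted as members but belong to no zone.

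The sequence around the RefSeq start is shown for the 6 genes with a suitable entry, since the distances of the Pol II and SPT5 summits are read from a start. At EEF1A1 and EEF2 the length from the RefSeq start shown to the gene end equals the hg19 span, and at HSP90AB1 it differs by 16 bp. At TUBA1B, NPM1 and ENO1 the hg19 span is longer than that length by 125, 129 and 406 bp. The whole RefSeq genes of HSP90AB1 (7690 bp) and NPM1 (23785 bp) begin at an earlier start and are longer than the hg19 spans. Each sequence runs from 100 bases before the annotated start to 20 bases from it, on the strand of the gene and in GRCh38, with matches to TATAAA or TATATA on either strand in capitals. Where several starts were listed, the start whose distance to the gene end was nearest to the length of the hg19 span was taken.
EEF1A1 (chr6:73521013-73521132, minus): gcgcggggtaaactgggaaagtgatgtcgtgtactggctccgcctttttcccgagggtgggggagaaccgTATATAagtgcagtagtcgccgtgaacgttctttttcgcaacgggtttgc
EEF2 (chr19:3985444-3985563, minus): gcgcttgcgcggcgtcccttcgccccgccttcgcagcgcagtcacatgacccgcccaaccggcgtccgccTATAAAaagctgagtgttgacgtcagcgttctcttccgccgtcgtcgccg
NPM1 (chr5:171387749-171387868, plus): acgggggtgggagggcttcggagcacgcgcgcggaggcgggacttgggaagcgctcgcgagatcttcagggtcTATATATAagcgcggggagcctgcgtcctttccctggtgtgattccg
HSP90AB1 (chr6:44247001-44247120, plus): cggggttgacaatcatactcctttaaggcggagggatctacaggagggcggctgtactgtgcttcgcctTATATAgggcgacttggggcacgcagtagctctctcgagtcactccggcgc
TUBA1B (chr12:49131376-49131495, minus): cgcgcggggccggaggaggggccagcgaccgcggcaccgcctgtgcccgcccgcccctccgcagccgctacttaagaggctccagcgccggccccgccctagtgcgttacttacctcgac
ENO1 (chr1:8878667-8878786, minus): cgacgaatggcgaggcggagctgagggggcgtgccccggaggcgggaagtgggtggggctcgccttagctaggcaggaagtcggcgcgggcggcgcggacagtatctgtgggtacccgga

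A match to TATAAA or TATATA lay 27 to 31 bases before the start in 4 of the 6 sequences, those of EEF1A1, EEF2, NPM1 and HSP90AB1. At NPM1 it was a pair of overlapping matches. Of 35116 RefSeq promoters in the same 120-base window, 2300 (6.55%) held either motif. The same 4 sequences held a run of at least 7 pyrimidines that reached into the interval from 5 bases before to 10 bases after the start, as did 18.5% of all promoters. Messages of the translation factors are known for such a pyrimidine tract at their 5′ end. The GC-box letters GGGCGG lay, on either strand, in 4 of the 6 sequences and in 32.9% of all promoters, and at TUBA1B they occurred 3 times. GC content had a median of 65.8% over the 6 sequences and of 60% over all promoters. These matches are a description of letters and show no bound factor. GAPDH is not shown because its RefSeq entry begins 747 bp inside the gene.

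Pol II and SPT5 both stood at the start of all 8 genes, at almost the same base. SPT5 summits lay 1 to 13 bp from the Pol II summit, with a median of 3.5 bp, 5 of them before it and 3 past it. Among all 18992 Pol II peaks with SPT5, the nearest SPT5 summit was within 20 bp at 38.6%. Among the 4508 of these that were at least as tall as the ACTB peak, the lowest of the 8, this share was 59.7%. These shares count Pol II peaks anywhere, whereas the 8 are the Pol II peaks nearest a start. The other 16 Pol II peaks of the loci also overlapped SPT5. Their nearest SPT5 summit of the same locus was 74 to 10126 bp away, except for 3 bp at an EEF1A1 peak near the gene end. Height here is the authors' fold enrichment of a peak, whose reference level no source used here names, so heights serve to rank peaks of the same list and are not compared between lists.

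At the cytoskeletal genes the Pol II summit lay 38 bp past the start of ACTB, with a fold enrichment of 7.60 that put it at percentile 77.2 of the Pol II list. SPT5 lay there at 30 bp with a fold enrichment of 12.6 (percentile 96.9 of the SPT5 list). At TUBA1B the summits were at 179 bp for Pol II (16.0, percentile 99.3) and 166 bp for SPT5 (16.0, percentile 99.3). TUBA1B thus held the tallest Pol II peak of the 8 genes, rank 145 in its list, and ACTB the lowest, rank 4538.

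At the glycolytic genes the Pol II summit lay 130 bp past the start of GAPDH (15.2, percentile 99.0) and 446 bp past that of ENO1 (8.99, percentile 86.1). SPT5 lay at 129 bp in GAPDH (18.1, percentile 99.7) and at 445 bp in ENO1 (13.5, percentile 97.8). ENO1 was therefore the lower of this pair in both lists.

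For the translation factors, the Pol II summit lay 34 bp past the start of EEF1A1 (10.1, percentile 91.1) and 38 bp past that of EEF2 (14.4, percentile 98.6). SPT5 lay at 33 bp in EEF1A1 (17.4, percentile 99.6) and 42 bp in EEF2 (12.3, percentile 96.5). The order of the pair differed between the lists: EEF2 ranked above EEF1A1 by Pol II and below it by SPT5.

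For the chaperones, the Pol II summit lay 25 bp past the start of HSP90AB1 (10.8, percentile 93.4) and 175 bp past that of NPM1 (14.5, percentile 98.7). SPT5 lay at 36 bp in HSP90AB1 (16.2, percentile 99.3) and at 178 bp in NPM1 (18.5, percentile 99.8). The NPM1 peak was the tallest SPT5 peak of the 8 genes, at rank 132 of its list.

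Over the 8 genes the tallest peak had a median percentile of 96.0 in the Pol II list (range 77.2 to 99.3) and 99.3 in the SPT5 list (96.5 to 99.8). It reached at least percentile 90 in 6 genes for Pol II and in 8 for SPT5. For TRIM28, O-GlcNAc and OGA, no gene reached percentile 90. The tallest TRIM28 peak had a median percentile of 62.9 (26.0 to 80.4), and the tallest O-GlcNAc peak, over the 7 genes that had any, 34.9 (13.6 to 50.7). The lists differ in length, so each longer list was also cut to its 9251 strongest peaks by p-value, as many as O-GlcNAc has. The median percentile of the tallest peak was then 91.4 for Pol II and 95.8 for SPT5 but 15.3 for TRIM28. So the tallest peaks of the loci ranked near the top by Pol II and SPT5 in either case, while the rank by TRIM28 depended on the length of the list.

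**Figure D1:**
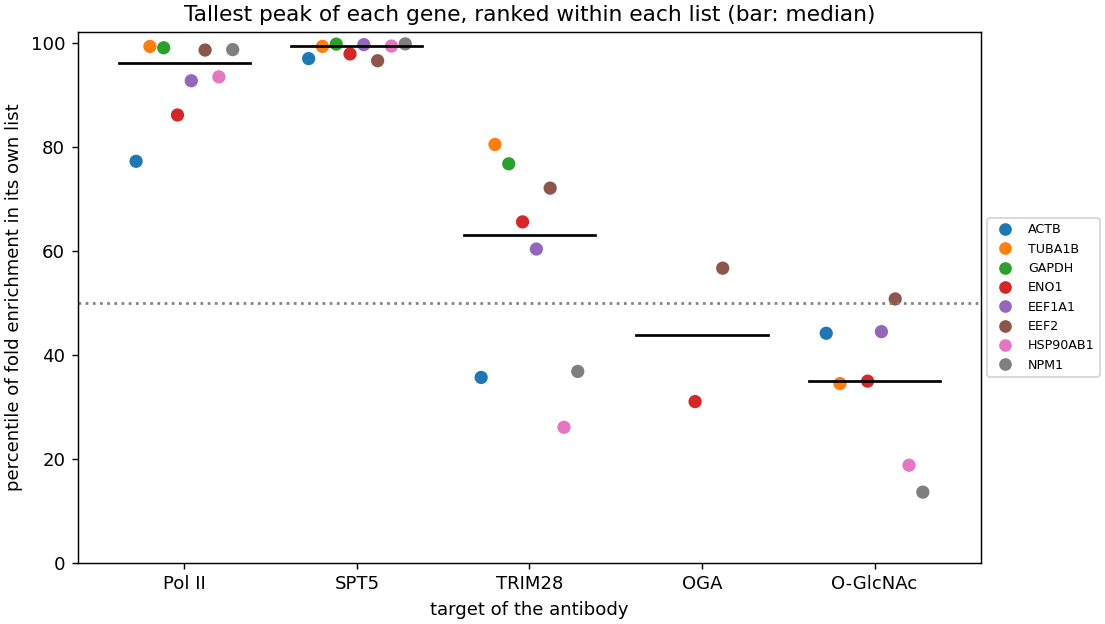
Percentile of the tallest peak of each gene within the list of each target (vertical axis; 100 is the highest fold enrichment of a list), with a bar at the median over genes that had a peak and a dotted line at percentile 50. Pol II and SPT5 points lie at 77.2 or above, whereas O-GlcNAc points lie between 13.6 and 50.7, and OGA has points for ENO1 and EEF2 only.

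The distance of the Pol II summit from the start, 25 to 446 bp with a median of 84 bp, depended on the start used. For ACTB, EEF1A1 and EEF2 the RefSeq gene in GRCh38 has the same length as the hg19 span, and their summits lay at 38, 34 and 38 bp. The span was longer than the nearest RefSeq length by 98 bp at GAPDH, 125 bp at TUBA1B, 129 bp at NPM1 and 406 bp at ENO1, and shorter by 16 bp at HSP90AB1. If the whole difference in length is assigned to the start, the 8 Pol II summits lie 32 to 54 bp past it, with a median of 39 bp. Which end of the span differs was not tested, because no genome or annotation of the build of the peaks was used here. The spread of the summits over the span starts is therefore no measured difference in the site of the pause.

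TRIM28 also had a summit within 1 kb of the start in all 8 genes, but mostly before the start and away from the Pol II summit. With lists of equal length, 4 genes kept such a TRIM28 summit, against 8 for Pol II and SPT5 and 7 for O-GlcNAc. Its summit nearest the start lay before it in 6 genes: by 92 bp at ENO1, 98 bp at TUBA1B, 205 bp at EEF1A1, 212 bp at NPM1, 225 bp at GAPDH and 575 bp at HSP90AB1. In EEF2 it lay 94 bp past the start, and in ACTB the nearest lay 712 bp past it, with another 939 bp before it. The distance to the Pol II summit was 56 to 674 bp (median 371 bp), against the 1 to 13 bp of SPT5. Of all 19 TRIM28 summits of the 8 genes, 14 lay before the start. The 5′ TRIM28 peaks ranged in height from 1.99 at ACTB (percentile 1.46 of the TRIM28 list) to 4.82 at TUBA1B (percentile 78.4).

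O-GlcNAc had a 5′ summit in 7 of the 8 genes, and GAPDH had no O-GlcNAc peak anywhere in its window. The summit nearest the start lay before it by 60 bp at HSP90AB1, 88 bp at ACTB, 132 bp at ENO1, 133 bp at EEF2 and 166 bp at EEF1A1. It lay 35 bp past the start in NPM1 and 713 bp past it in TUBA1B. If the difference in length at NPM1 is assigned to the start, the NPM1 summit lies 94 bp before it, so its side depends on the start used. No other 5′ O-GlcNAc or TRIM28 summit named here changes side in this way. In 6 of 7 genes the O-GlcNAc summit nearest the start was on the upstream side of the Pol II summit, by 85 to 578 bp, and in TUBA1B it was 534 bp further into the gene. ACTB and ENO1 each had another O-GlcNAc summit inside the gene, at 585 bp and 926 bp. In ENO1 that summit, 480 bp past the Pol II summit, was the nearer of the pair, so by the summit nearest to Pol II the upstream side held in 5 of 7 genes. The ENO1 summit at 926 bp lay 3 bp from a small Pol II summit at 929 bp (2.54). NPM1 likewise had a small Pol II peak inside the gene, at 783 bp (3.35), with a TRIM28 summit 22 bp from it and no O-GlcNAc.

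GAPDH had the second highest 5′ Pol II peak of the 8 genes and the tallest 5′ TRIM28 peak after TUBA1B (4.68, percentile 76.7). A peak below the authors' threshold would not be listed, so O-GlcNAc at GAPDH was not detected here rather than shown to be absent.

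**Figure D2:**
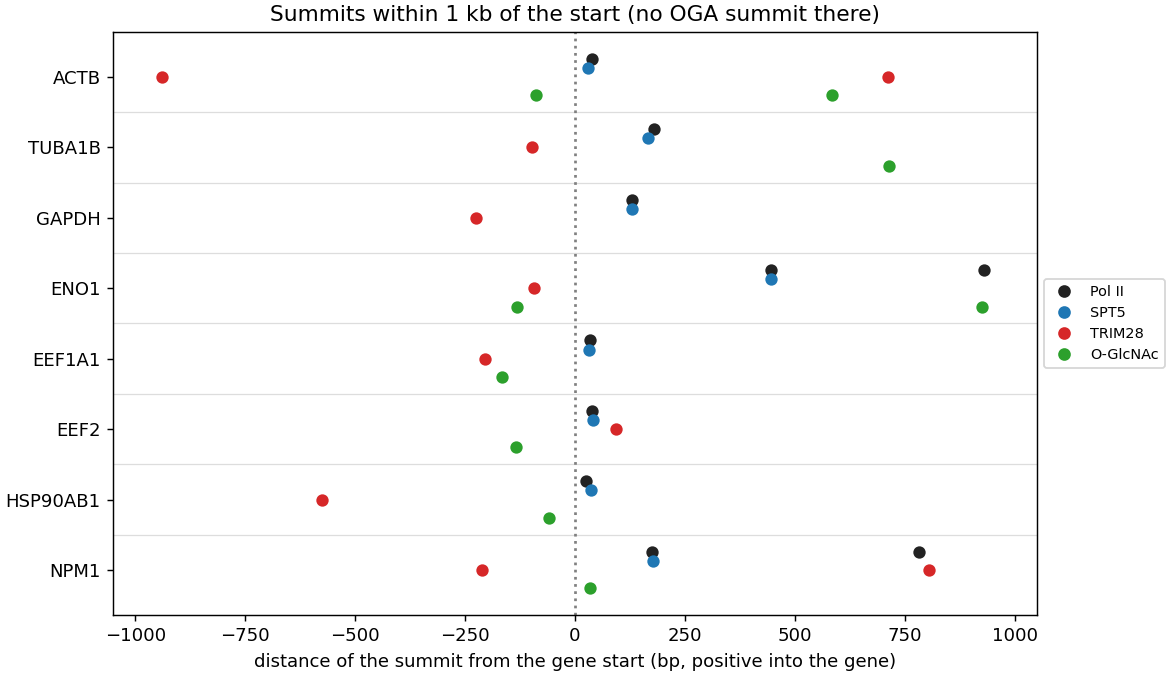
Position of every summit within 1 kb of the start (horizontal axis, bp along the strand of the gene, with 0 at the start of the hg19 span) for each gene, coloured by target. Black and blue points (Pol II and SPT5) sit within 13 bp of each other in every gene except for extra Pol II summits of ENO1 and NPM1, while red points (TRIM28) and green points (O-GlcNAc) lie mostly to the left.

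No OGA peak overlapped any of the 24 Pol II peaks of the 8 genes (exact binomial 95% interval 0% to 14.2%). Over all Pol II peaks the share with OGA was 6.03%, and over those at least as tall as the ACTB peak 8.33%, so a count of 0 in 24 lies within what the background share allows. Intervals here cover counting error only, and peaks of a gene are not independent. O-GlcNAc overlapped 8 of the 24 (33.3%, interval 15.6% to 55.3%), against 40.2% of all Pol II peaks. TRIM28 overlapped 12 of the 24 (50%, interval 29.1% to 70.9%), against 59.9%. SPT5 overlapped 24 of 24 (interval 85.8% to 100%), against 95.5% of all and 99.3% of those at least as tall as the ACTB peak. The background shares of TRIM28, O-GlcNAc and SPT5 all lay inside these intervals.

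The shares parted between the starts and the rest of the loci. All 8 Pol II peaks at the starts overlapped TRIM28 and 7 overlapped O-GlcNAc. Among Pol II peaks at least as tall as the ACTB peak, 76.6% overlapped TRIM28 and 61.7% O-GlcNAc, and 44.0% carried SPT5, TRIM28 and O-GlcNAc without OGA, the set found at 7 of the 8 starts. The set at GAPDH, SPT5 and TRIM28 alone, was that of 24.6%. With 8 genes, the exact intervals of the member shares are wide, 63.1% to 100% for TRIM28 and 47.3% to 99.7% for O-GlcNAc, and both hold the background share. Of the 16 other Pol II peaks of the loci, 4 overlapped TRIM28 (25%, interval 7.27% to 52.4%) and 1 overlapped O-GlcNAc (6.25%, 0.158% to 30.2%), but most of them were low peaks, and low Pol II peaks carry these targets less often. Of the 14 that lay below percentile 50 of the Pol II list, 2 overlapped TRIM28 (14.3%, interval 1.78% to 42.8%), against 48.4% of all Pol II peaks below that percentile, and 1 overlapped O-GlcNAc (7.14%, 0.181% to 33.9%), against 21.4%. Of the 11 below percentile 25, 1 overlapped TRIM28 and 1 O-GlcNAc (9.09% each, 0.23% to 41.3%), against 44.7% and 12.7%. At both cuts the interval for O-GlcNAc thus held the background share, while the interval for TRIM28 lay below its background share. Several of these peaks share a gene and are not independent, so this is no test. Seen from the other lists, 15 of the 19 TRIM28 peaks overlapped Pol II (78.9%), against 28.6% of all TRIM28 peaks, and 9 of the 10 O-GlcNAc peaks did, against 80.8%. Every window holds a Pol II peak, so the whole lists are no matched background and nothing is read from these differences. The 4 TRIM28 peaks of ACTB all lay under its broad Pol II peak.

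Coverage of the gene bodies was a feature of SPT5. SPT5 peaks covered at least 50% of the gene span in 7 of the 8 genes and the whole span in ACTB, GAPDH and ENO1. The share was 80.8% in EEF1A1, 72.5% in TUBA1B, 67.1% in HSP90AB1 and 60.6% in EEF2. NPM1 stood apart at 4.64%: its SPT5 peak at the start ended 1074 bp into the gene, and the remaining 22106 bp of the span held none. Pol II covered the whole span only in ACTB, 39.8% of EEF1A1 and 26.6% of TUBA1B, and between 3.55% (NPM1) and 17.8% (HSP90AB1) of the others. The median over genes was 76.6% for SPT5, 15.6% for Pol II, 2.54% for TRIM28, 2.18% for O-GlcNAc and 0% for OGA. With lists of equal length it was 44.7% for SPT5 and 13.8% for Pol II. The 8WG16 antibody prefers the form of Pol II found mostly near starts, and its part in the low Pol II coverage of bodies and ends was not tested.

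Several of these domains were among the widest of their lists. The SPT5 peak of ENO1 spanned 23653 bp, rank 2 by width of 56040, and ran from 978 bp before the start to beyond the end of the gene. ACTB was held in an SPT5 peak of 10217 bp (rank 43) and GAPDH in an SPT5 peak of 9613 bp (rank 54). The Pol II peak of ACTB spanned 8954 bp, rank 4 by width of 19889, from 2744 bp before the start to 2756 bp past the end. ACTB thus had the lowest 5′ Pol II height of the 8 genes and the broadest Pol II peak. Peaks wider than 1 kb made up 16 of the 30 SPT5 peaks (53.3%) and 7 of the 24 Pol II peaks (29.2%), against 16.3% and 11.5% of the whole lists. A wide peak meets a window more readily than a narrow peak, so the membership rule itself favours wide peaks, and its part was not tested. None of the member TRIM28, O-GlcNAc or OGA peaks was wider than 1 kb, against 0.68%, 1.19% and 0.586% of their lists.

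**Figure D3:**
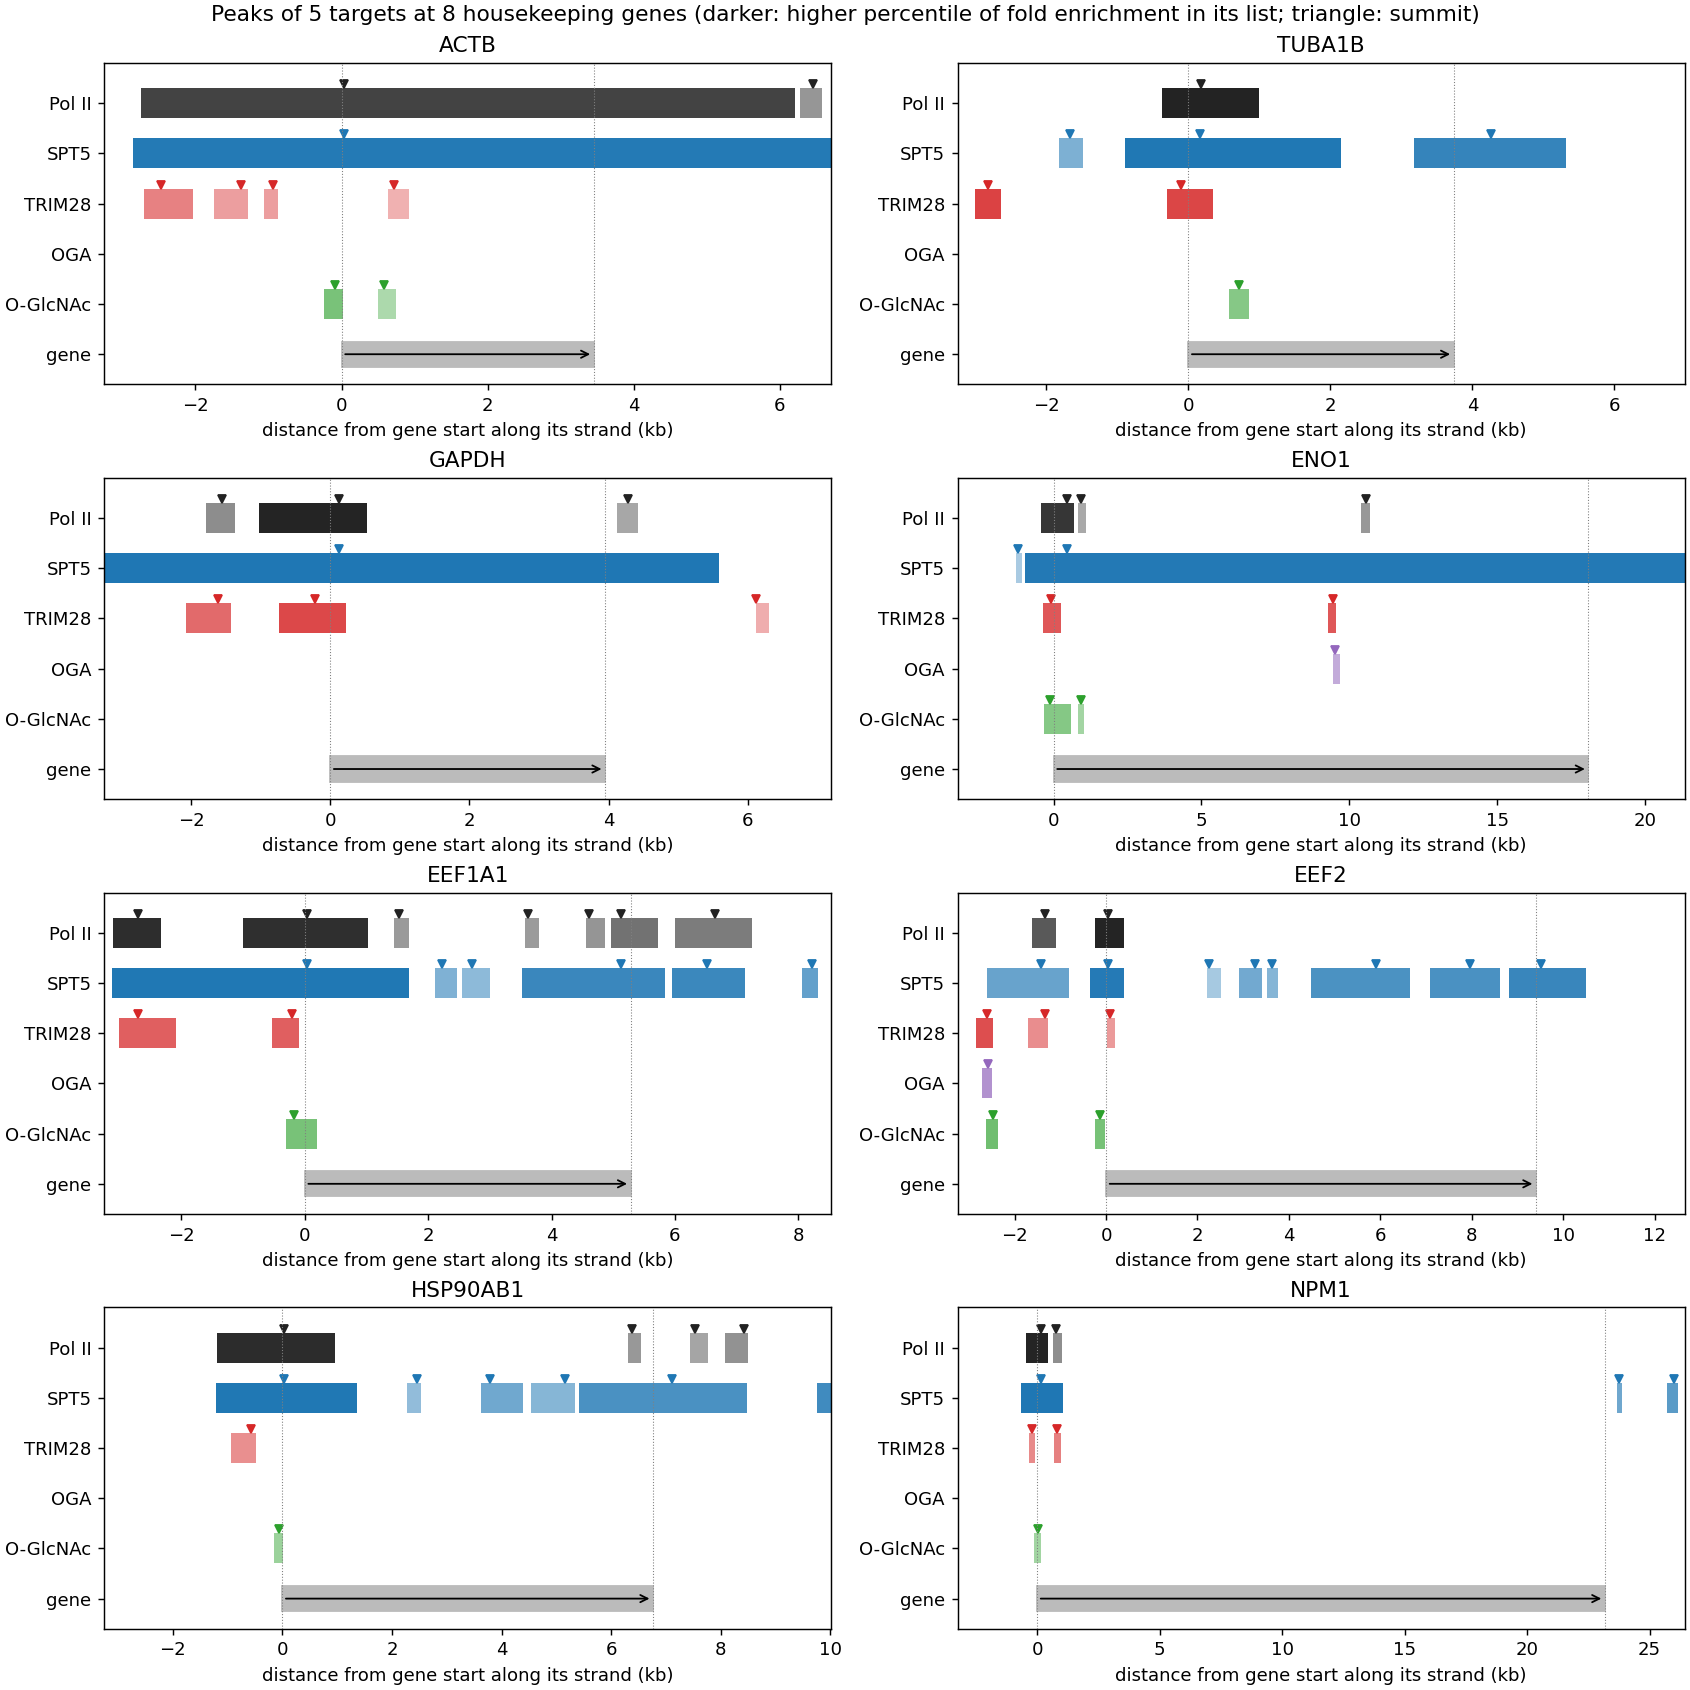
Peaks of the 5 targets at each gene (bars, darker for a higher percentile in the list) with their summits (triangles), by distance in kb from the gene start along its strand; the grey box is the gene and frames end about 3 kb outside it, where some peaks continue. SPT5 bars fill ACTB, GAPDH and ENO1 from start to end, break up along EEF2 and HSP90AB1, and are missing from the body of NPM1.

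The break-up of SPT5 along the other genes had a common form, a tall peak at the start and lower ones after it. In EEF2, 8 SPT5 peaks were listed: 12.3 at the start, 2.30, 3.12, 2.85, 4.26 and 4.31 along the body, 6.45 at 119 bp past the end, and 3.31 upstream at 1419 bp before the start. Height within the EEF2 body was thus lowest near the start and higher toward the end. In HSP90AB1 the body peaks had 2.68, 3.18 and 2.84, and the 3′ peak, 337 bp past the end, 4.33. In EEF1A1 the body peaks had 2.94 and 2.74, and a peak of 6.32 had its summit 162 bp before the end.

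Body peaks of Pol II, as seen by the 8WG16 antibody, were few and low. They occurred in EEF1A1, at 1534 bp (fold enrichment 2.98) and 3626 bp (2.96) past the start, and in ENO1, at 10571 bp (3.04). All 3 lay low in the Pol II list, at percentiles 15.3 to 17.2. None of the 10 SPT5 peaks with a summit in a gene body overlapped a Pol II peak, whereas 8 of 8 at the starts did. The 3 body Pol II peaks did overlap SPT5, but under wide SPT5 peaks whose summits lay in the 5′ or 3′ zone. The 0 overlaps thus depend on zones being assigned by summit. Of the 30 SPT5 peaks in all zones, 13 overlapped Pol II (43.3%), against 29.1% of all SPT5 peaks. Every window holds a Pol II peak, so nothing is read from this difference. TRIM28 and OGA each had 1 body peak, both in ENO1, and O-GlcNAc had none. SPT5 had body peaks in 3 genes, EEF1A1, HSP90AB1 and EEF2, and Pol II in 2, and with lists of equal length both had them in 0.

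At the 3′ ends, SPT5 had a summit within 1 kb of the end in 5 genes and Pol II in 3. The SPT5 list is the longer, and with lists of equal length both counts were 0. None of these peaks was thus among the 9251 strongest of its list by p-value. By fold enrichment the SPT5 peaks lay at percentiles 84.6 (TUBA1B), 82.5 (EEF2), 82.1 (EEF1A1), 70.6 (HSP90AB1) and 45.2 (NPM1) of their list. The Pol II peaks lay at percentiles 7.06 to 43.8 of theirs. The 5 SPT5 peaks lay 528 bp past the end of TUBA1B (7.08), 578 bp past that of NPM1 (3.20), 119 bp past that of EEF2, 337 bp past that of HSP90AB1 and 162 bp before that of EEF1A1. In the 3 genes without such a summit, ACTB, GAPDH and ENO1, the SPT5 peak from the start covered the 3′ zone in full. The peak at the start was 1.91 times as tall as the 3′ peak in EEF2, 2.26 times in TUBA1B, 2.75 times in EEF1A1, 3.75 times in HSP90AB1 and 5.77 times in NPM1.

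The Pol II peaks near the ends were at GAPDH, HSP90AB1 and EEF1A1. In GAPDH the summit lay 333 bp past the end (2.58), in HSP90AB1 380 bp before it (3.07) and 756 bp past it (2.66), and in EEF1A1 165 bp (4.45) and 671 bp (3.15) before it. The EEF1A1 Pol II summit at 165 bp and the SPT5 summit at 162 bp before the end were 3 bp apart. Peaks with a summit still further out, 1 to 3 kb past the end, were found for Pol II in EEF1A1 (1372 bp, 4.05) and HSP90AB1 (1662 bp, 3.26). SPT5 had such peaks in EEF1A1 (1239 bp, 6.01, and 2938 bp, 3.41) and NPM1 (2834 bp, 3.63). TRIM28 had 1, at GAPDH, and neither O-GlcNAc nor OGA had any peak past an end. In GRCh38 the neighbouring gene SLC35B2 lies 218 bp past the end of HSP90AB1, IFFO1 590 bp past that of GAPDH and the long non-coding RNA gene LOC221946 1603 bp past that of ACTB, and the microRNA gene MIR4647 323 bp past that of HSP90AB1, so peaks there cannot be told apart by gene.

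**Figure D4:**
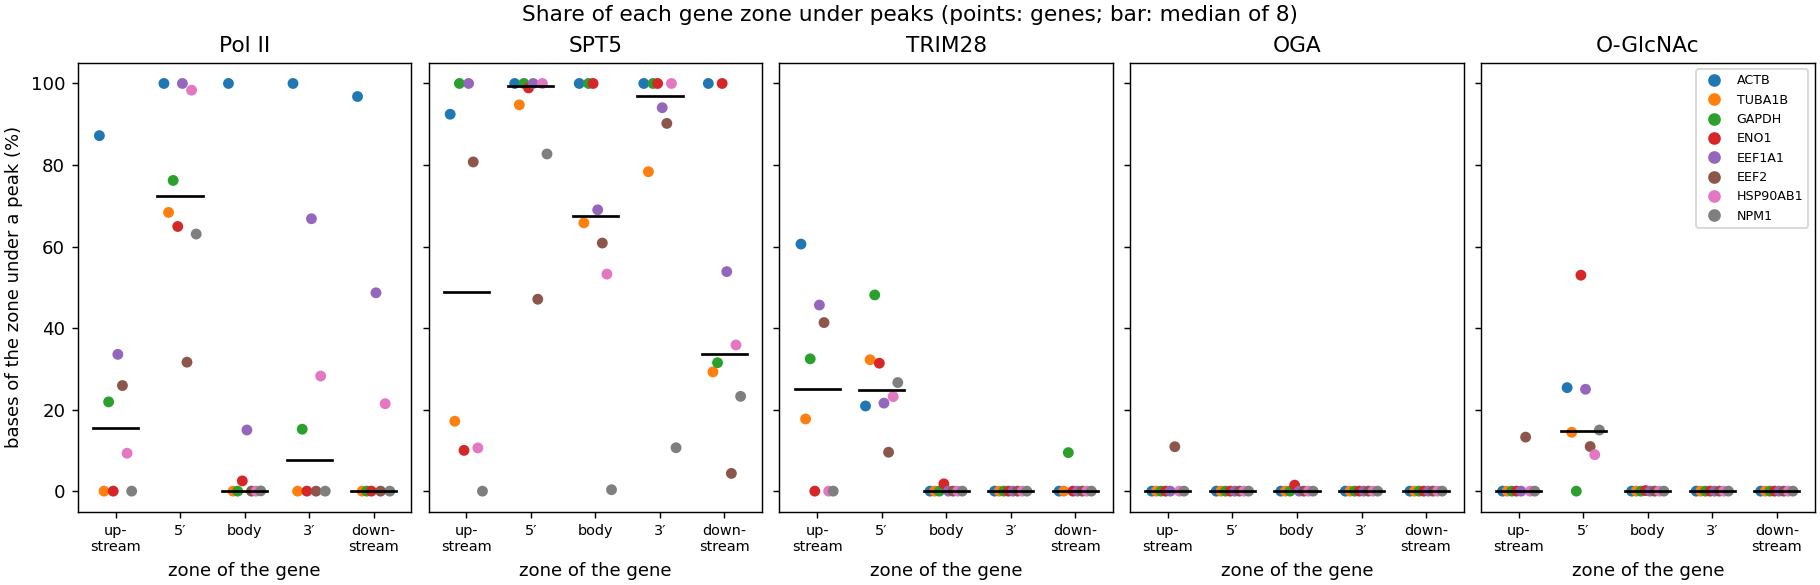
Share of the bases of each zone (horizontal axis) that lies under a peak (vertical axis, %), with a point for each gene and a bar at the median, in a panel for each target. The SPT5 medians are 99.5% in the 5′ zone, 67.4% in the body and 97.0% in the 3′ zone, those of Pol II are 72.3%, 0.0307% and 7.60%, and TRIM28 and O-GlcNAc stay almost wholly in the upstream and 5′ zones.

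Upstream of the starts, separate Pol II peaks lay at EEF1A1, EEF2 and GAPDH. The EEF1A1 peak, 2698 bp before the start, had a fold enrichment of 10.6 and was slightly taller than the 10.1 of the peak at the start. A TRIM28 summit lay 12 bp from it, at 2710 bp before the start, and the broad SPT5 peak of the start (4814 bp) covered it. In GRCh38 the long non-coding RNA gene EEF1A1-AS1 has its near end 2579 bp before EEF1A1. At EEF2 the Pol II peak lay 1345 bp before the start (5.87), with TRIM28 at 1339 bp and SPT5 at 1419 bp. At GAPDH it lay 1559 bp before the start (3.39), with TRIM28 at 1613 bp, inside the SPT5 domain, and the gene GAPDH-DT lies 110 bp before GAPDH in GRCh38. That SPT5 domain began 4030 bp before GAPDH, and in GRCh38 the near end of NCAPD2, which encodes a condensin subunit, is 2562 bp before GAPDH, so the domain cannot be assigned to GAPDH alone. In GRCh38 ENO1-AS1 also lies 149 bp before ENO1 and the microRNA gene MIR3912 356 bp before NPM1, while MIR6728 lies within ENO1 and the small nucleolar RNA gene SNORD37 within EEF2. Neighbour distances are from the edge of the whole RefSeq gene, whereas summits are measured from the start of the hg19 span. The RefSeq gene and the span differ in length at NPM1 (23785 and 23181 bp) and ENO1 (17687 and 18093 bp), among others. Such distances and summit positions thus cannot be set side by side directly. All 3 upstream Pol II peaks overlapped TRIM28 and SPT5, and none overlapped O-GlcNAc or OGA. Over all Pol II peaks 59.9% overlapped TRIM28, 95.5% SPT5, 40.2% O-GlcNAc and 6.03% OGA. The set of SPT5 and TRIM28 alone was that of 28.4% of them, so nothing is read from these 3. At TUBA1B a TRIM28 peak lay 2822 bp before the start (4.99, percentile 80.4) and a low SPT5 peak at 1662 bp (2.96), neither with Pol II, and in GRCh38 the gene TUBA1B-AS1 begins 211 bp before TUBA1B. The upstream TRIM28 peaks of ACTB, at 1372 bp (2.58) and 2469 bp (3.10), lay inside the broad Pol II and SPT5 peaks of that gene. The upstream TRIM28 and Pol II summits of EEF1A1, EEF2 and GAPDH were 6 to 54 bp apart, against 56 to 674 bp for the Pol II peaks nearest the starts. The ranges nearly meet, and the small Pol II peak inside NPM1 had a TRIM28 summit 22 bp away, so nothing is read from this difference.

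Both OGA peaks of the 8 loci overlapped TRIM28 and not Pol II. This was a frequent state of the OGA list, in which 90% of peaks overlapped TRIM28, 53.8% lacked Pol II and 46.5% did both, so nothing is read from the 2. In EEF2 the OGA summit was 2586 bp before the start (fold enrichment 3.53, percentile 56.6 of the OGA list), with TRIM28 at 2612 bp (4.37), O-GlcNAc at 2472 bp (3.91) and an SPT5 peak over it. In ENO1 the OGA summit was 9515 bp into the gene (2.93, percentile 31.0), with TRIM28 at 9437 bp (4.04), inside the wide SPT5 peak and without O-GlcNAc. The EEF2 site was the only place in the 8 windows where OGA and O-GlcNAc peaks overlapped. Of the 8 starts, only that of EEF2 had an OGA summit within 3 kb of its Pol II summit, against 9.43% of all Pol II peaks.

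The neighbourhood of these starts held more SPT5 than that of most Pol II peaks. Within 3 kb on either side of the 5′ Pol II summit, SPT5 peaks covered 28.8% (NPM1) to 100% (GAPDH) of the bases, with a median of 66.8%. The median over all 19889 Pol II peaks was 21.7%, and over the 4538 at least as tall as the ACTB peak 21.1%. ACTB reached 98.1%, EEF1A1 91.3%, ENO1 77.1%, TUBA1B 56.5%, EEF2 49.7% and HSP90AB1 47.0%, so all 8 genes lay above both medians. The same was true of Pol II, with 19.2% (EEF2) to 96.4% (ACTB) against 12.8% and 14.2%, and of TRIM28, with 7.73% (HSP90AB1) to 27.2% (ACTB) against 6.62% and 7.58%. For O-GlcNAc, 6 genes lay above the 4.60% of the taller peaks and GAPDH and HSP90AB1 (2.98%) below. These are descriptions of 8 named loci in single libraries, and no test was made.

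**Figure D5:**
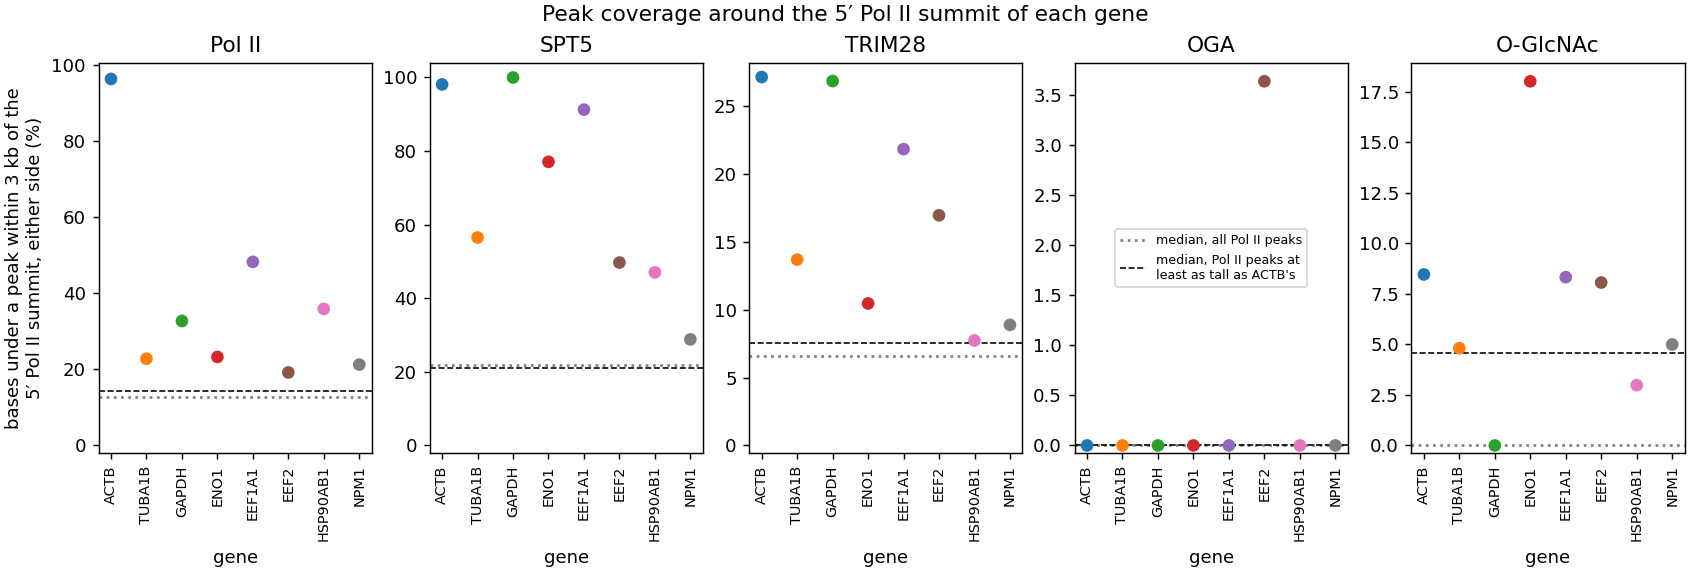
Share of bases under a peak within 3 kb either side of the 5′ Pol II summit of each gene (points, %; the vertical scale differs between panels), with lines at the median over all Pol II peaks (dotted) and over Pol II peaks at least as tall as that of ACTB (dashed). In the SPT5 panel all 8 points lie above the lines, from 28.8% at NPM1 to 100% at GAPDH.

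Processed copies of some of these genes share their exon sequence. RefSeq lists 65 numbered GAPDH pseudogenes, 50 each for EEF1A1 and NPM1, 14 for ACTB, 4 for ENO1 and none under such names for TUBA1B, HSP90AB1 and EEF2. No source used here says how reads with several matches were placed, and the part of such copies in the body and 3′ peaks was not tested.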

How the data were processed

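Peak lists of 5 ChIP-seq libraries, 1 per target, were used as deposited. The submitters' processing notes name hg19 and the tools Bowtie2 2.1.0, Trimmomatic 0.30 and bcl2fastq 2.17. No source used here gives the peak caller, its control or its threshold. The authors' fold enrichment is a ratio to a background that is not given, and −log10 p and −log10 q, also deposited, rate each peak against it. Total reads are unknown, so no precision from depth can be given.

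The members, zones and lists were chosen with earlier results of these data known. Gene spans were given with the rule, and all 8 genes are named. Neighbouring genes are named where RefSeq (GRCh38) places them within 3 kb of the whole RefSeq gene, and their distances are from its edge. Promoters were to be shown for genes whose 5′ peaks differed most in the targets present. GAPDH alone differed and had no entry at its start, so the other usable entries were shown. No test was made, since each target had 1 library. Overlap meant at least 1 bp, and shares have exact (Clopper-Pearson) 95% intervals. Lengths in RefSeq, promoter motifs, coverage within 3 kb, the 20 bp and 1 kb limits and the subsets of tall and low Pol II peaks were chosen after seeing the data. Alternatives were a −log10 q of at least 5, lists at the length of the O-GlcNAc list, other flanks, zones and overlaps. Positions of 200 simulated peaks were all assigned to their zone. Python 3.11.15, pandas 2.3.3, numpy 2.4.6, scipy 1.17.1 and matplotlib 3.10.9 were used, and overlaps were checked with bedtools 2.31.1.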

Additional observations from a re-analysis of the deposited data

How the results depend on the processing

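The 36 values were recomputed under 117 alternatives in all, and 90 stayed within 1.5 times of a count, 5 percentage points of a median, 10 bp of a distance or the interval of a share. The 5′ counts of Pol II and SPT5 stayed at 8 genes, that of O-GlcNAc at 6 or 7 and that of OGA at 0 under each of the 4 alternatives run for them. With lists cut to the 9251 strongest peaks, member peaks became 10 for Pol II, 9 for SPT5 and 8 for TRIM28, and 4 genes had a 5′ TRIM28 peak. Body peaks then remained in 0 genes for Pol II, SPT5 and TRIM28, and 3′ peaks in 0 genes for Pol II and SPT5. The median SPT5 coverage of the gene became 44.7%, the TRIM28 percentile 15.3, and O-GlcNAc overlapped 70% of the remaining Pol II peaks. At a −log10 q threshold of 5, 1 OGA peak was left and OGA had a body peak in 0 genes, Pol II had a body peak in 1 gene, and the median percentile of the tallest peak was 47.9 for TRIM28, 38.2 for OGA and 26.5 for O-GlcNAc. A flank of 1 kb left 11 TRIM28 and 1 OGA peaks. Counting any overlap with a zone gave body peaks in 4 genes for Pol II, 8 for SPT5 and 1 for O-GlcNAc and 3′ peaks in 8 genes for SPT5. Zones of 500 bp gave body peaks in 3 genes for both TRIM28 and O-GlcNAc and 3′ peaks in 3 genes for SPT5. Shorter lists, narrower flanks and other zone limits remove or move peaks by construction. No paired analysis was possible because each target had 1 library. Peak lists give no read counts, so a zone without a peak may hold signal below the threshold.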
